A study of Mus musculus with 6 samples.

Results

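Immunoglobulin variable segments were examined in RNA of the submandibular gland, a salivary gland, of female mice. The segments were taken as the rows of the filtered raw count table whose symbols begin with Ighv (heavy chain), Igkv (kappa light chain) or Iglv (lambda light chain). This rule gave 142 of the 17527 rows, of which 72 were Ighv, 67 were Igkv and 3 were Iglv. The series held 6 bulk RNA-seq libraries, 3 labelled wild type (WT) and 3 labelled DKO, numbered 1, 4 and 5 in each group. DKO mice carry inactivated copies of both Hs3st3a1 and Hs3st3b1, which encode sulfotransferases that modify heparan sulfate. By the methods of the study, Hs3st3a1 carried a short frameshift deletion in its opening exon made with a zinc finger nuclease, and Hs3st3b1 carried a LacZ cassette. Both groups were adults on a C57BL/6 background. Several founder lines were made, and the line behind each library was not given in the labels. Both genes are inactivated in every cell of the animal, and the labels give no age and do not say whether the 3 libraries of a group came from 3 animals, so p-values measure only the spread between these samples.

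An antibody is made of heavy and light chains, and the variable end of each chain is encoded by 1 variable segment that a developing B cell joins to short diversity and joining segments. A B cell keeps its rearranged segments for life and passes them to its daughter cells, so one clone of cells transcribes 1 productive heavy chain segment and usually 1 productive light chain segment. Plasma cells, the antibody-secreting descendants of B cells, carry very large amounts of this RNA. In salivary glands they lie mainly in the connective tissue around acini and ducts, and much of their product is IgA, which the epithelium carries into saliva with the polymeric immunoglobulin receptor. In bulk RNA, fewer cells of a type and less RNA per cell cannot be told apart.

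The 142 segments lie in 3 loci of the mouse genome (GRCm38, GENCODE M21). The annotated Ighv segments, members or not, covered 2437 kb of chromosome 12, from 113572927 to 116010093, and the 72 members were all on the minus strand. The annotated Igkv segments covered 3149 kb of chromosome 6, from 67555497 to 70704177, with 26 of the 67 members on the plus and 41 on the minus strand. The 3 Iglv members lay within 176 kb of chromosome 16, from 19085017 to 19260859. All 142 were annotated as functional variable genes, which are made of a leader exon and a variable exon. None of the 68 rows annotated as variable pseudogenes was a member, and the highest count of any pseudogene was 3.

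Members resemble each other, and this bears on what a count of 1 row means. Across members, a median of 46.8% of the 31-base stretches of a segment's transcript also occurred in another annotated variable segment, and 66 of 142 members shared more than 50% of their stretches. The closest annotated relative of a member was a median of 92.3% identical. Reads from such stretches may have been dropped or given to a relative, and somatic mutation in B cells may move reads further from the reference. The values of near-identical segments are therefore uncertain. Ighv1-26, the segment with the smallest adjusted p in the comparison of groups, is shown first with the segments closest to it. These are the last 150 bases of each reference transcript (GENCODE M21, GRCm38), 5′ to 3′ in the sense of the gene, and all 4 lie on the minus strand. Capitals mark bases that differ from Ighv1-26.
Ighv1-26, chr12:114788372-114788521: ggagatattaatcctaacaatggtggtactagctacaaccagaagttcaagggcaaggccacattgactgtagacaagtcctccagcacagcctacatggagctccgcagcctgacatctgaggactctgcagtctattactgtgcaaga
Ighv1-18, chr12:114682632-114682781: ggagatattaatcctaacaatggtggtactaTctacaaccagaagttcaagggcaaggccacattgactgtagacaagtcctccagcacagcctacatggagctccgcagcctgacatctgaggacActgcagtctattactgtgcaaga
Ighv1-22, chr12:114746273-114746422: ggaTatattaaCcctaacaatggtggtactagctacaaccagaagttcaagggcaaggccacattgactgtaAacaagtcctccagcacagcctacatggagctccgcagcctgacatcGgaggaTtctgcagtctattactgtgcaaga
Ighv1-19, chr12:114708648-114708797: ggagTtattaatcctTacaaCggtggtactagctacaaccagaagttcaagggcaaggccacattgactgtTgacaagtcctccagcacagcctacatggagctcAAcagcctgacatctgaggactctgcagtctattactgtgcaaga
Of these 150 bases, 2 differed in Ighv1-18, 5 in Ighv1-22 and 6 in Ighv1-19. Over the whole transcript Ighv1-18 was 96.9% identical to Ighv1-26 and held 41.7% of its 31-base stretches, and 74.8% of the stretches of Ighv1-26 occurred in some other segment.

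The next set shows segments that were distinctive among libraries. Igkv14-100 and Igkv14-126 were abundant in 1 library each, Igkv1-117 ranked among the top 10 segments of 5 libraries, Iglv1 held most lambda counts, and Ighv6-6 was the only member called higher in the libraries labelled DKO. Capitals mark the codon of the conserved cysteine near the end of the segment, found as the TGN of the motif TANTNNTGN within the last 45 bases of the transcript, read on the strand of the gene only. Of the 142 members, 97.18% held this motif, as did 95.83% of the 216 annotated functional segments and 59.23% of the 130 pseudogenes. The bases after it form the germline start of the third complementarity-determining region, the loop that contributes most to the diversity of antibodies.
Igkv14-100, chr6:68519328-68519477, plus strand: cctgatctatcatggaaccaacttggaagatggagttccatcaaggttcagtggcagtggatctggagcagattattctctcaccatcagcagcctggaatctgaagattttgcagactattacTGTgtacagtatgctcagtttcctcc
Igkv14-126, chr6:67896493-67896642, plus strand: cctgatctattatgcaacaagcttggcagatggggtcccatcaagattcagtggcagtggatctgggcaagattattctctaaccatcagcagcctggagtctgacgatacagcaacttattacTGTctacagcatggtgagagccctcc
Igkv1-117, chr6:68121678-68121827, plus strand: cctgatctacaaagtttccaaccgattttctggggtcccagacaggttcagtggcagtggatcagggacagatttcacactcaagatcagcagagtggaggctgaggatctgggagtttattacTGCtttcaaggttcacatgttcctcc
Iglv1, chr16:19085017-19085166, minus strand: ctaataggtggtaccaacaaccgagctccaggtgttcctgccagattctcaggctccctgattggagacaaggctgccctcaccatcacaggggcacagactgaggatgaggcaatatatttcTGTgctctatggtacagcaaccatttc
Ighv6-6, chr12:114434788-114434937, minus strand: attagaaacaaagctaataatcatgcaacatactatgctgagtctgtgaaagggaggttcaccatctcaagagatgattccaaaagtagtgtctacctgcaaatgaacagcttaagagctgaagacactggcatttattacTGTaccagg
Igkv14-100 shared 0.310% of its 31-base stretches with other segments and Igkv14-126 shared 5.79%. Their closest relatives, Igkv14-130 at 82.2% identity and Igkv14-111 at 89.1%, resembled them over most of the transcript but held few identical stretches of that length.

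Total counts ranged from 23674258 to 29611975 per library, and size factors from 0.867 to 1.12. The targeted genes did not separate the groups. Hs3st3a1 had 15, 11 and 15 counts in WT 1, 4 and 5 and 11, 8 and 13 in DKO 1, 4 and 5, and Hs3st3b1 had 173, 203 and 261 against 255, 120 and 189. Counts summed over a gene do not show a short deletion, and whether reads upstream or downstream of the cassette remain was not tested, so the genotype labels were not checked by these counts. Hs3st3b1 was not lower in the libraries labelled DKO, with an adjusted p of 0.976 in DESeq2. Libraries are therefore named as they were labelled, and every direction below rests on those labels.

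Variable segment counts differed 8.26-fold between the highest and the lowest library after scaling. The summed raw counts were 6527 in WT 1, 2438 in WT 4, 5652 in WT 5, 4106 in DKO 1, 1950 in DKO 4 and 678 in DKO 5. As CPM, counts scaled to the total of the whole table, these were 276, 90.4 and 207 in the WT libraries and 145, 65.9 and 26.2 in the DKO libraries. WT 1 and WT 5 were highest and DKO 5 lowest, but DKO 1 exceeded WT 4, so the groups overlapped. Normalized counts, which are raw counts divided by the size factor of the library, averaged 4635 ± 2070 (SD, n = 3) in WT and 2239 ± 1567 (SD, n = 3) in DKO, a log2 ratio of -1.05. This ratio was -1.72 without DKO 1 and -0.64 without DKO 5. No test was made of this sum, and an exact permutation test of 3 libraries against 3 cannot give a two-sided p below 0.1. The plot of summed counts and detected segments gives these values by locus.

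**Figure D1:**
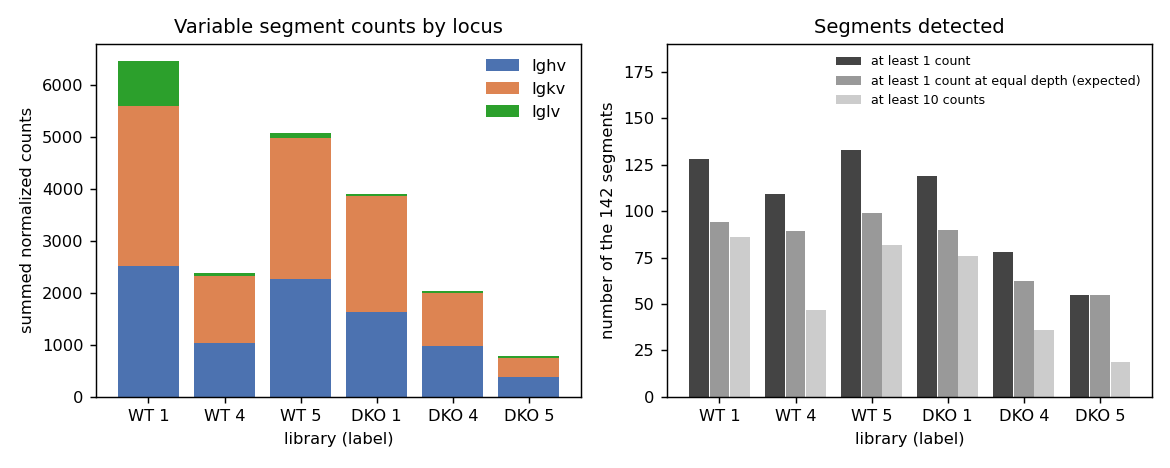
Left, summed normalized counts (raw counts divided by the library's size factor) of the 142 variable segments in each of the 6 libraries, stacked by locus. Right, the number of segments with at least 1 count, with at least 1 count expected at an equal depth of 678 variable segment counts, and with at least 10 counts. DKO 5 was lowest for all of them, and DKO 1 lay above WT 4 in summed counts.

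The heavy chain locus contributed 2532, 1059 and 2524 counts in WT 1, 4 and 5 and 1717, 941 and 328 in DKO 1, 4 and 5. The kappa locus contributed 3107, 1324 and 3027 counts in the same WT libraries and 2350, 970 and 322 in the DKO libraries. In both loci DKO 1 was above WT 4, and the log2 ratios of the group means of normalized counts were -0.96 for Ighv and -0.97 for Igkv. The number of kappa counts per heavy chain count was 1.23, 1.25 and 1.20 in WT and 1.37, 1.03 and 0.982 in DKO, so the loci moved together within a narrow range while their levels varied.

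The lambda locus behaved differently from the others. Its 888, 55 and 101 counts in WT 1, 4 and 5 compared with 39, 39 and 28 in DKO 1, 4 and 5. Lambda segments made up 13.6% of variable segment counts in WT 1 and between 0.950% and 4.13% in the other 5 libraries. Normalized lambda counts were 879, 53.8 and 90.5 in WT and 37.0, 40.8 and 32.3 in DKO, so the groups did not overlap, although WT 1 alone set the size of the difference. Iglv1 held most of these counts, with 860, 50 and 90 in WT and 27, 36 and 28 in DKO. Its log2 fold change was -3.36 ± 1.18 (SE), with an adjusted p of 0.0867 in DESeq2, which missed the threshold of 0.05. Iglv2 and Iglv3 reached at most 15 and 13 counts, both in WT 1. Iglc2, a lambda constant region, had 69, 21 and 29 counts in WT and 31, 12 and 5 in DKO. No row was found under the symbols Iglc1 and Iglc3, so the Iglv1 counts could not be set beside the full set of lambda constant regions.

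Variable segment counts were set beside the constant regions of the same chains, which every rearranged transcript also carries. Heavy chain constant region rows summed to 10330, 3334 and 8124 counts in WT 1, 4 and 5 and to 5937, 2980 and 987 in DKO 1, 4 and 5. The kappa constant region Igkc had 3736, 1438 and 3213 counts in WT and 2874, 1235 and 396 in DKO. There were 24.5, 31.8 and 31.1 Ighv counts per 100 heavy constant counts in WT and 28.9, 31.6 and 33.2 in DKO, and 83.2, 92.1 and 94.2 Igkv counts per 100 Igkc counts in WT against 81.8, 78.5 and 81.3 in DKO. The heavy chain ratio overlapped between groups, and the kappa ratio was lower in every DKO library than in every WT library, with WT 1 close to DKO 1. Both ratios varied much less between libraries than the counts themselves, as the plot of variable against constant region counts shows.

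**Figure D2:**
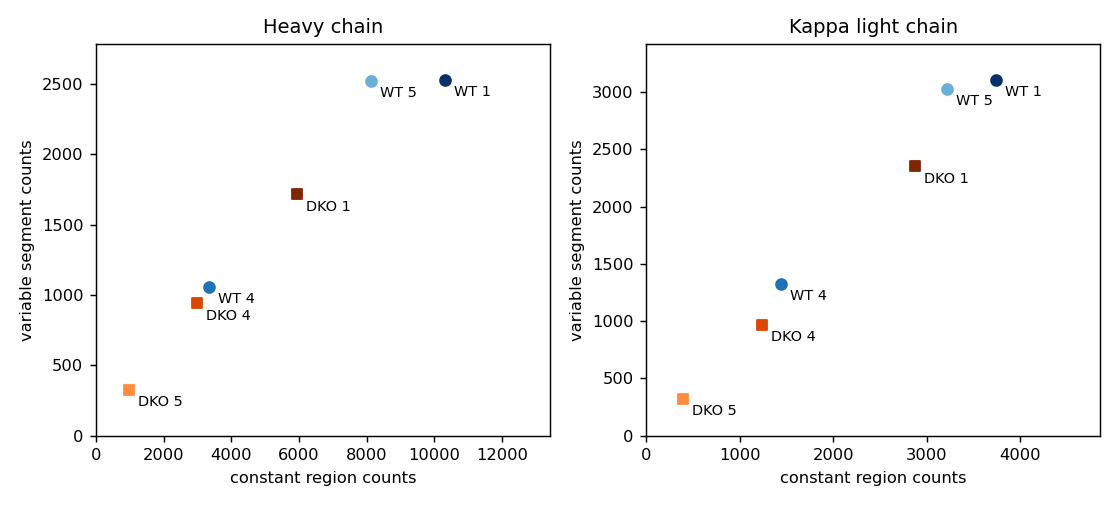
Summed raw counts of variable segments (vertical axes) against summed raw counts of constant regions (horizontal axes) for the heavy chain (left) and the kappa light chain (right). Each point is 1 library, circles WT and squares DKO. The 6 libraries lie close to a line through the origin, with 24.5 to 33.2 heavy variable counts per 100 constant counts and 78.5 to 94.2 kappa counts per 100.

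The heavy chain class differed between libraries. Igha, the constant region of IgA, made up 46.4% of heavy constant counts in WT 1, 89.0% in WT 4 and 57.8% in WT 5, and 96.8%, 96.7% and 91.9% in DKO 1, 4 and 5. Igha itself had 4789, 2968 and 4696 counts in WT and 5746, 2882 and 907 in DKO, with an adjusted p of 0.922 in DESeq2. Ighm, the constant region of IgM, had 2166, 198 and 1790 counts in WT and 80, 66 and 63 in DKO, and fell with a log2 fold change of -4.18 ± 0.88 (SE) and an adjusted p of 4.20e-04 in DESeq2. The rows Ighg1, Ighg2b, Ighg2c and Ighg3, constant regions of IgG, summed to 3340, 164 and 1622 counts in WT and 105, 28 and 11 in DKO. All 4 were called lower by DESeq2, but the groups overlapped for Ighg2c and Ighg3. Ighm was still called when any 1 library was omitted, whereas each of the 4 Ighg rows was called in at most 2 of 6 such repeats. Ighg3 had an adjusted p in only 4 of them. Without WT 1 the adjusted p was 0.174 for Ighg1, 0.213 for Ighg2b and 0.205 for Ighg2c, and without DKO 5 it was 0.231 for Ighg3. In total 5 of the 10 constant region and J chain rows tested were called lower and 0 higher by DESeq2, beside 1.88% and 1.02% of all rows tested. Of these 10 rows, edgeR's quasi-likelihood test called 0.

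The number of segments detected followed the summed counts. With at least 1 count, 128, 109 and 133 of the 142 segments were detected in WT 1, 4 and 5 and 119, 78 and 55 in DKO 1, 4 and 5. With at least 10 counts the numbers were 86, 47 and 82 in WT and 76, 36 and 19 in DKO. DKO 1 again exceeded WT 4 by both measures. When every library was reduced by calculation to 678 variable segment counts, the depth of DKO 5, the expected numbers were 94.1, 89.5 and 99.0 in WT and 89.9, 62.4 and 55.0 in DKO. DKO 1 lay within the WT range at equal depth, whereas DKO 4 and DKO 5 lay below it. A segment with no count could still have held up to 0.0460% of variable segment counts in WT 1 and up to 0.442% in DKO 5, the share of 3 counts, so absence from DKO 5 is a weaker statement than absence from WT 1. Such limits, and the intervals below, cover counting error only.

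A total of 33 segments were detected in all 6 libraries, 47 in 5, 24 in 4, 21 in 3, 13 in 2 and 4 in 1. Counts were found in both groups for 129 segments, in WT libraries alone for 13 and in DKO libraries alone for 0. WT libraries held more variable segment counts, a mean of 4872 against 2245 in DKO, so this split compares unequal depths. The same split was not made over all rows. The 13 held 1092 counts, 539 of them from a single segment in a single library. Members needed more than 5 counts in at least 1 library to enter the filtered table. There were 4 members with a highest count of 6 and 4 other variable segment rows with a highest count of 5. The 137 variable segment rows outside the rule held 146 counts together, and 93 of them held none, against 21351 counts in the members.

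Each library drew a large part of its counts from a few segments. The most abundant segment held 13.2% (95% Wilson interval 12.4 to 14.0) of the counts in WT 1, 10.9% (9.7 to 12.2) in WT 4, 9.54% (8.8 to 10.3) in WT 5, 6.06% (5.37 to 6.84) in DKO 1, 9.13% (7.93 to 10.5) in DKO 4 and 12.5% (10.3 to 15.2) in DKO 5. The top 10 held 45.7%, 55.6% and 44.5% in WT 1, 4 and 5 and 44.9%, 58.9% and 61.5% in DKO 1, 4 and 5, with DKO 5 having the widest interval, 57.8% to 65.1%. WT 1, WT 5 and DKO 1 formed the low end and WT 4, DKO 4 and DKO 5 the high end, which is also the division by summed counts, and the groups overlapped. The effective number of segments, the inverse of the summed squared shares, was 28.1, 20.8 and 32.6 in WT and 36.8, 21.3 and 19.7 in DKO. Between 8 and 13 segments sufficed to reach 50% of the counts of a library.

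**Figure D3:**
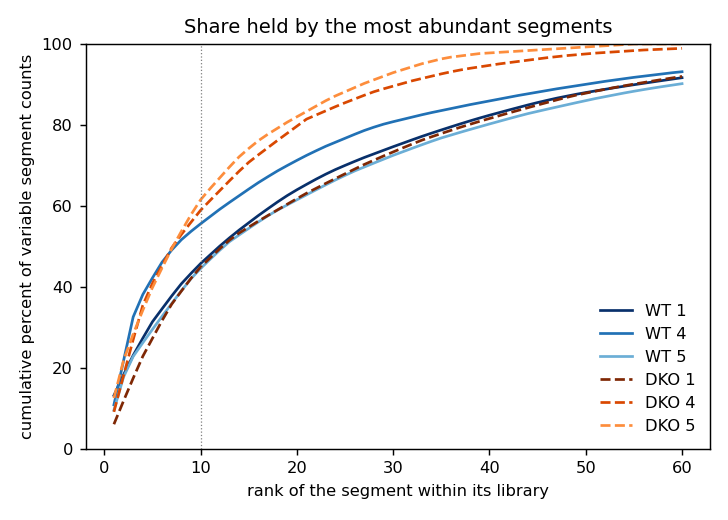
Cumulative percent of variable segment counts (vertical axis) held by the most abundant segments of each library, against their rank within that library (horizontal axis), for 3 WT libraries (solid) and 3 DKO libraries (dashed). The dotted line marks rank 10, where the curves lie between 44.5% and 61.5%, with WT 1, WT 5 and DKO 1 lowest.

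The segments at the top were largely different ones in each library. The 6 top 10 lists named 40 distinct segments, of which 26 appeared in 1 list, 10 in 2 lists, 3 in 3 lists and 1 in 5 lists. Ighv5-16, Igkv4-91 and Iglv1 were in 3 lists and Igkv1-117 was in 5, and no segment was in all 6. The heat map of these 40 segments shows a block of high values for each library that is low in most others.

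**Figure D4:**
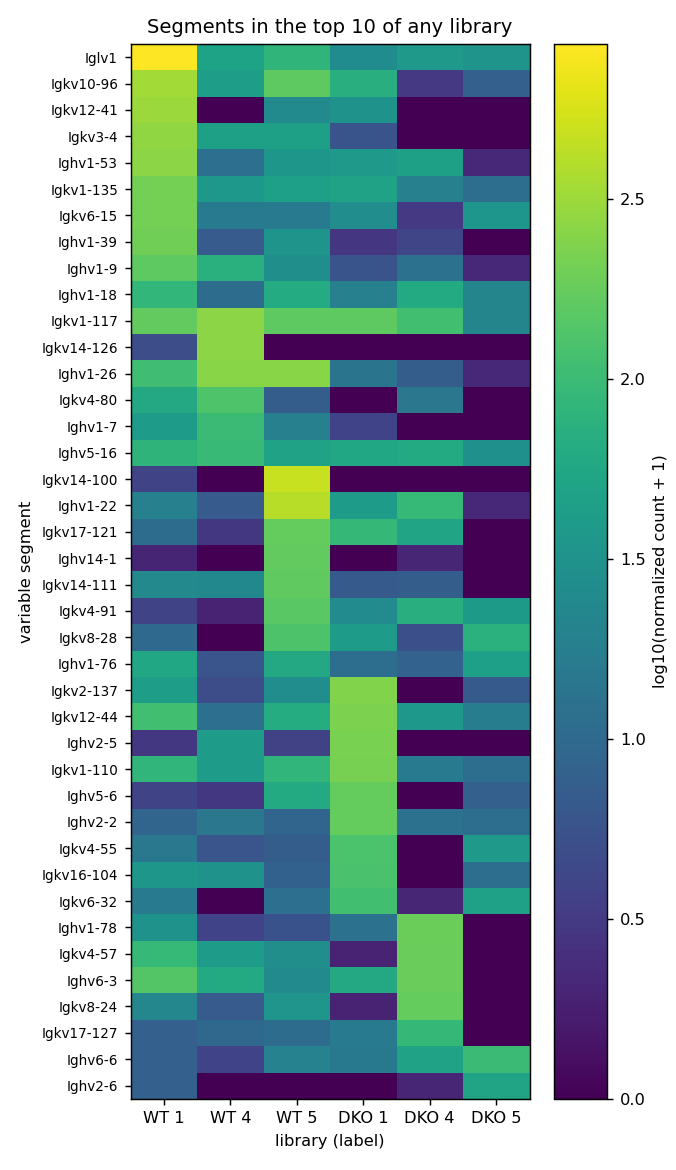
Level of the 40 segments (rows) that ranked among the 10 most abundant in at least 1 library, in each of the 6 libraries (columns), as log10 of the normalized count plus 1. Rows are ordered by the library in which the segment was highest, and bright cells in 1 column beside dark cells in the others mark segments that were abundant in a single library.

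In WT 1 the leading heavy chain segment was Ighv1-53 with 265 counts, 10.5% of the Ighv counts, and the leading kappa segment was Igkv10-96 with 333 counts, 10.7% of the Igkv counts. Ighv1-53 had 11 and 39 counts in WT 4 and 5 and 40, 43 and 1 in DKO 1, 4 and 5. Igkv10-96 had 44 and 177 in the other WT libraries and 72, 2 and 6 in DKO. Both were thus at their highest in WT 1 without being restricted to it.

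WT 4 was led by 3 segments of nearly equal count. Ighv1-26 had 264 counts there, 24.9% of the heavy chain counts, and Igkv14-126 and Igkv1-117 had 265 each, 20.0% of the kappa counts each. Igkv14-126 had 4 counts in WT 1 and 0 in the other 4 libraries. Igkv1-117, in contrast, had 167, 265 and 178 counts in WT 1, 4 and 5 and 166, 106 and 18 in DKO 1, 4 and 5, and its share in 1 library was the lowest among the 8 kappa segments with the highest means.

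WT 5 was led by Ighv1-22 with 463 counts, 18.3% of its heavy chain counts, and Igkv14-100 with 539 counts, 17.8% of its kappa counts. Ighv1-22 had 18 and 6 counts in WT 1 and 4 and 43, 86 and 1 in DKO 1, 4 and 5. Igkv14-100 had 3 counts in WT 1 and 0 in the other 4 libraries, so 99.4% of its normalized counts came from WT 5.

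DKO 1 was led by Ighv2-5 with 230 counts, 13.4% of its heavy chain counts, and Igkv2-137 with 249 counts, 10.6% of its kappa counts. Ighv2-5 had 2, 41 and 3 counts in WT 1, 4 and 5 and 0 in DKO 4 and DKO 5. Igkv2-137 had 42, 4 and 29 in WT and 0 and 5 in DKO 4 and 5. DKO 1 had the most even distribution of the 6 libraries, with Igkv12-44 at 237 and Igkv1-110 at 222 close behind.

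DKO 4 held 178 counts of Ighv1-78, 18.9% of its heavy chain counts, and 173 of Ighv6-3, 18.4%. Its leading kappa segments were Igkv4-57 with 175 counts, 18.0%, and Igkv8-24 with 165 counts, 17.0%. Ighv1-78 was lower in the other libraries, with 31, 3 and 5 counts in WT and 12 and 0 in DKO 1 and 5. These 4 segments all had 0 counts in DKO 5.

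DKO 5 was led by Ighv6-6 with 85 counts, 25.9% of its heavy chain counts, and Igkv8-28 with 63 counts, 19.6% of its kappa counts. Ighv6-6 had 7, 3 and 21 counts in WT and 15 and 46 in DKO 1 and 4. Igkv8-28 had 9, 0 and 142 in WT and 43 and 4 in DKO 1 and 4, so its highest count was in WT 5. Which heavy chain was paired with which light chain in a cell cannot be read from bulk libraries.

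Concentration in 1 library was a property of most members. Of the 137 members tested (those with at least 10 counts over the 6 libraries), 85 had more than 50% of their normalized counts in 1 library, which is 62.0%, compared with 387 of 18606 rows tested, or 2.08%. Among rows with a mean of at least 10 normalized counts the shares were 60.5% of 86 members and 1.03% of 14792 rows. The median member had 57.4% of its counts in its highest library, and the median row 20.8%. The highest library was WT 1 for 44 members, WT 5 for 38, DKO 1 for 32, DKO 4 for 13, WT 4 for 12 and DKO 5 for 3. The median dispersion estimated by DESeq2, its measure of spread between replicates, was 1.59 in members and 0.0311 in all rows tested.

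The makeup of the libraries overlapped little within either group. Summing over segments the smaller of the shares that a pair of libraries gave to each, WT pairs had 39.2% to 41.0% of their makeup in common, DKO pairs 25.1% to 34.8%, and pairs of 1 WT and 1 DKO library 23.4% to 37.4%. The DKO pairs lay within the range of pairs between groups, and the WT pairs lay above both. Libraries with fewer counts share less by sampling alone, and DKO 5 had the fewest.

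Families, the groups of segments with similar sequence named by the first number of the symbol, differed in share between libraries. The groups did not overlap for 3 families, Ighv1, Ighv14 and Igkv14, each with a lower share in DKO. They overlapped for every other Ighv and Igkv family, and family shares were not tested. By a different measure, the normalized counts of single rows, all DKO libraries lay below all WT libraries for 10.5% of all rows tested and above them for 9.85%. No such background was made for shares within a locus, so the 3 families are a description only. Ighv1, the largest heavy chain family with 38 members, made up 65.2%, 65.2% and 64.3% of Ighv counts in WT 1, 4 and 5 and 40.8%, 56.6% and 36.3% in DKO 1, 4 and 5. Ighv14, with 4 members, made up 0.829%, 1.32% and 9.55% in WT and 0.349%, 0.425% and 0% in DKO. The other families that took more of the heavy chain counts in DKO differed by library. Ighv2 made up 25.6% in DKO 1 and 20.1% in DKO 5 but 1.38% in DKO 4, against 3.08%, 8.50% and 1.82% in WT. Ighv6 made up 23.3% in DKO 4 and 25.9% in DKO 5 but 4.37% in DKO 1, against 5.88%, 6.14% and 1.86% in WT. Ighv5 was stable, at 11.8%, 13.6% and 8.32% in WT and 15.6%, 11.9% and 11.9% in DKO.

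Kappa families varied more by library. Igkv4, the largest with 19 members, made up 12.1%, 20.7% and 17.8% of Igkv counts in WT and 12.6%, 34.4% and 20.8% in DKO. Igkv14 made up 23.3% in WT 4 and 25.2% in WT 5, mostly counts of Igkv14-126 and Igkv14-100, but 1.06% in WT 1 and 0.383%, 0.619% and 0% in DKO. Igkv1, whose 3 members include Igkv1-117, ranged from 10.6% to 25.8% over all libraries. By position, the lower-coordinate part of the Ighv span, up to its midpoint, held 51.4%, 78.4% and 74.4% of heavy chain counts in WT and 66.2%, 61.4% and 72.9% in DKO. Segments on the plus strand of the Igkv locus held 40.4%, 65.6% and 50.5% of kappa counts in WT and 51.2%, 34.6% and 27.6% in DKO. Neither position separated the groups.

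To ask which segments differed between libraries labelled DKO and WT, each row was tested with DESeq2's two-sided Wald test and Benjamini-Hochberg adjustment over all 18606 rows. Of the 137 members tested, 16 were called lower in DKO and 1 higher at an adjusted p below 0.05. The 16 are 11.7% of the members tested, compared with 1.88% of all rows called lower, and the 1 is 0.730%, compared with 1.02% of all rows called higher. There were 8 lower calls in Ighv, 8 in Igkv and 0 in Iglv. An adjusted p was not given for 35 members, 10 because of an outlying library by Cook's distance and 25 because of a low mean. A member that passed the filter on low counts through 1 group alone had to differ between groups, so these shares are a description of the rows that passed.

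The direction was uneven over all members tested. The log2 fold change was negative for 98 and positive for 39, with a median of -1.33 compared with 0.00 over all rows tested. All DKO libraries lay below all WT libraries for 22 members, 16.1%, compared with 10.5% of all rows. All DKO libraries lay above all WT libraries for 0 members, compared with 9.85% of all rows. The limit from the filter on low counts applies to these directions too, so they describe the rows that passed. The plot of fold change against mean level places the members among all rows.

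**Figure D5:**
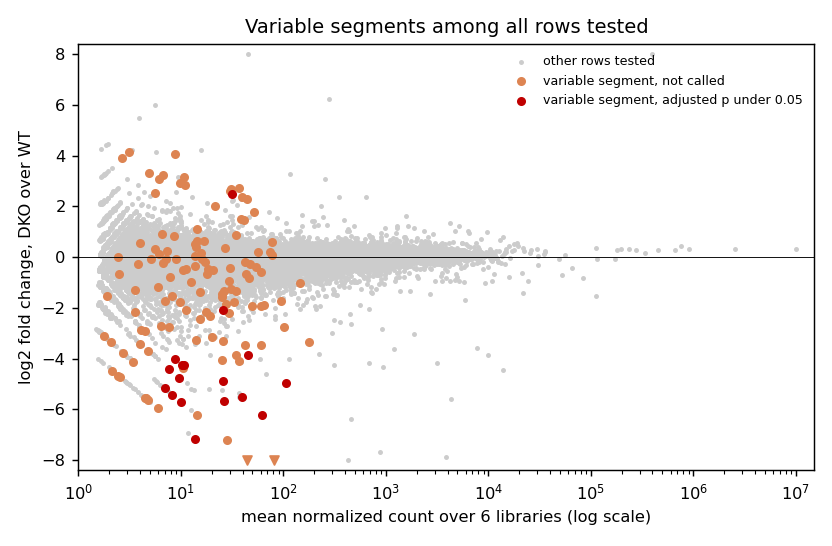
Log2 fold change, DKO over WT, from DESeq2 (vertical axis) against the mean normalized count over the 6 libraries (horizontal axis, log scale) for all 18606 rows tested. Grey points are other rows, drawn at the edge where they lie beyond 8 in either direction, orange points are variable segments not called, and red points are the 17 called. Triangles at the lower edge are Igkv14-100 and Igkv14-126, whose fold changes lie beyond the axis and rest on 1 library each.

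Ighv1-26, an Ighv1 family segment, had the smallest adjusted p. Its raw counts were 109, 264 and 287 in WT 1, 4 and 5 and 13, 6 and 1 in DKO 1, 4 and 5. All 3 WT libraries were high and all 3 DKO libraries low. The log2 fold change was -4.96 ± 0.79 (SE), with an adjusted p of 2.28e-07 in DESeq2 and 0.0203 in edgeR's quasi-likelihood test. It was the only member called when each of the 6 libraries was left out in turn, with a largest adjusted p of 0.00109 in DESeq2, and the only member called by edgeR. Its close relatives did not share the pattern. Ighv1-18 had 87, 10 and 70 counts in WT and 19, 58 and 18 in DKO, with an adjusted p of 0.753 in DESeq2, and Ighv1-22 was high in WT 5 alone, with an adjusted p of 0.809. Ighv1-19 had 10, 6 and 13 counts in WT and 34, 20 and 5 in DKO. Its log2 fold change was 1.11, with an adjusted p of 0.528 in DESeq2. Reads of these relatives may have been exchanged, so the split among them is uncertain.

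Of the other heavy chain calls, Ighv1-9 had 159, 73 and 31 counts in WT and 5, 11 and 1 in DKO, a log2 fold change of -3.87 ± 0.66 (SE) and an adjusted p of 2.62e-06 in DESeq2. Ighv1-7 had 41, 100 and 20 counts in WT and 3, 0 and 0 in DKO, a log2 fold change of -5.67 ± 1.04 (SE) and an adjusted p of 1.95e-05. Neither overlapped between groups. Each was still called in 5 of 6 repeats that omitted a single library. The adjusted p of Ighv1-9 was 0.0605 without DKO 1, and that of Ighv1-7 was 0.160 without WT 1. The remaining 5 lower heavy chain calls, Ighv1-39, Ighv1-42, Ighv1-54, Ighv1-58 and Ighv1-80, were made in at most 2 of those repeats. All 8 lower heavy chain calls thus belonged to the Ighv1 family, which held 38 of the 72 members. Among these 5, Ighv1-80 had 42, 3 and 18 counts in WT and 1, 0 and 2 in DKO.

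Among kappa segments, Igkv4-72 had 58, 10 and 92 counts in WT and 4, 1 and 0 in DKO, with an adjusted p of 4.99e-05 in DESeq2. Igkv4-50 had 10, 10 and 70 counts in WT and none in DKO, with an adjusted p of 1.70e-04, and Igkv4-74 had 15, 3 and 46 in WT and 0, 0 and 1 in DKO, with an adjusted p of 0.00805. All 3 were highest in WT 5. Igkv4-72 was called in 5 of 6 repeats with a library omitted, and Igkv4-50 and Igkv4-74 in 3 each. Some repeats gave no adjusted p for Igkv4-50 and Igkv4-74. Without WT 1 the adjusted p of Igkv4-50 was 0.187, without DKO 4 that of Igkv4-72 was 0.114, and without DKO 1 that of Igkv4-74 was 0.0652. Igkv3-4 had 277, 46 and 50 counts in WT and 5, 0 and 0 in DKO, with an adjusted p of 0.0171 in DESeq2. It was called in only 1 of 6 such repeats, and its adjusted p was 0.304 without WT 1. The other kappa calls were Igkv3-5, Igkv8-27, Igkv9-124 and Igkv14-130, each called in at most 2 of the repeats with a library omitted.

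Ighv6-6 was the 1 segment called higher in DKO. With 7, 3 and 21 counts in WT 1, 4 and 5 and 15, 46 and 85 in DKO 1, 4 and 5, DKO 1 lay below WT 5 and the groups overlapped. The log2 fold change was 2.47 ± 0.69 (SE), with an adjusted p of 0.0191 in DESeq2 and 0.207 in edgeR. Ighv6-6 was called in 2 of 6 repeats with a library omitted, and without WT 1 its adjusted p in DESeq2 was 0.625.

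The calls depended on the model of spread. edgeR's quasi-likelihood test called 1 member and limma-voom called 0, against 0.0537% and 0.0376% of all rows in either direction, although 49 and 27 members had an unadjusted p below 0.05 in those tests. With 1 library omitted, DESeq2 called 7 members without WT 1, 16 without WT 4, 6 without WT 5, 20 without DKO 1, 8 without DKO 4 and 6 without DKO 5.

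Several abundant segments did not pass the test. Ighv5-16, the least concentrated of the 8 heavy chain segments with the highest means, had 80, 95 and 54 counts in WT and 58, 59 and 25 in DKO, a log2 fold change of -0.59 ± 0.36 (SE) and an adjusted p of 0.519 in DESeq2. Igkv1-117 was lower in every DKO library than in every WT library after scaling, but its adjusted p was 0.659. Igkv1-135 had 209, 36 and 49 counts in WT and 50, 17 and 9 in DKO, with an adjusted p of 0.371. Igkv12-41 had 313, 0 and 26 in WT and 32, 0 and 0 in DKO, with an adjusted p of 0.810. The 10 members without an adjusted p because of an outlying library included leaders of single libraries, namely Ighv2-5, Igkv1-110, Igkv14-100 and Igkv14-126.

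Marker sums of other cell types differed between libraries. The 15 B cell markers, such as Ms4a1 and Cd22, summed to 489, 78.3 and 129 normalized counts in WT 1, 4 and 5 and to 47.4, 49.1 and 40.4 in DKO 1, 4 and 5. Of the 14 tested, 4 (Ms4a1, Cd22, Spib and Cd37) were called lower and 0 higher by DESeq2, beside 1.88% of all rows called lower, and edgeR called 0. Each of the 4 was called in at most 2 of 6 repeats with a library omitted, although Spib had an adjusted p in only 4 of them and Ms4a1 in 5. The 10 T cell markers summed to 437, 109 and 222 in WT and 55.0, 33.4 and 39.2 in DKO. DESeq2 called 6 of the 10 lower and 0 higher, beside 1.88% of all rows called lower, and edgeR called 0. Cd8a, which had 38, 10 and 25 counts in WT and 0 in each DKO library, was called in all 6 repeats with a library omitted and Lck in 5, while Cd3d, Cd3g, Cd4 and Trbc2 were called in 1 or 2. For Cd3d only 1 repeat gave an adjusted p, and Cd3d was called in it. Those of lymph node and lymphoid stroma, of which 7 of 8 had a row and 4 were tested, summed to 136, 31.3 and 62.7 in WT and 33.2, 21.9 and 21.9 in DKO, with 0 called by DESeq2 or edgeR. Glycam1 and Madcam1, genes of lymph node vessels, had at most 1 count in any library. All these sums were highest in WT 1, the library with the most variable segment, IgM and lambda counts. The B cell and T cell sums were lower in every DKO library than in every WT library. In this they differed from the summed variable segments, where DKO 1 exceeded WT 4. The part of B cells, T cells or lymph node tissue in the differences above was not tested.

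Plasma cell markers were mixed. The 13 genes summed to 14880, 15425 and 13523 normalized counts in WT and 14905, 20077 and 17266 in DKO, but most of this sum came from Xbp1, Txndc5 and Derl3, which gland epithelium also expresses. Among the less abundant markers, Pou2af1, a coactivator of immunoglobulin transcription, had 107, 19 and 53 counts in WT 1, 4 and 5 and 25, 16 and 3 in DKO 1, 4 and 5, with an adjusted p of 0.0607 in DESeq2. Irf4, a factor needed for plasma cell formation, had 88, 41 and 85 in WT and 48, 28 and 11 in DKO, with an adjusted p of 0.123. Both ranked the libraries in the order of summed variable segment counts, and neither passed the test. Mzb1, Slamf7 and Tnfrsf17 had log2 fold changes of -1.16, -1.13 and -1.06 and were not called. Tnfrsf13b, Prdm1, Eaf2 and Sdc1 changed less, with log2 fold changes of -0.44, -0.24, -0.04 and 0.09, and were not called either. Over the list the median log2 fold change was -0.24. DESeq2 called 0 of the 13 genes lower and 2 higher, beside 1.88% and 1.02% of all rows tested, and edgeR called 0. The 2 were Derl3 and Fkbp11, genes of the secretory machinery, with log2 fold changes of 0.48 and 0.71 and adjusted p-values of 0.00414 and 0.00533, which became 0.117 and 0.133 in DESeq2 without WT 5. The J chain gene, listed as Igj, which joins IgA and IgM into polymers, had 1633, 754 and 1404 counts in WT and 1063, 598 and 150 in DKO, which is the order of the libraries in summed variable segment counts, with an adjusted p of 0.636 in DESeq2.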

How the data were processed

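Submandibular gland RNA of 6 samples, 3 labelled WT and 3 labelled DKO, was sequenced by the authors on a HiSeq2500 after unstranded Nextera XT library preparation. The submitters' processing notes name STAR 2.5.2a, DESeq2, edgeR and limma and the builds GRCm38, mm10 and GRCh38. The counting tool and annotation are not given in the sources used here. Tables of raw counts for each gene symbol were deposited, unfiltered (43280 rows) and filtered (17527 rows). A row entered the filtered table where any library exceeded 5 counts, and its counts were the same in both. A deposited table of CPM values was not used. Without strand, reads of overlapping genes on opposite strands cannot be told apart.

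The unfiltered counts were tested with DESeq2 1.42.0 in R 4.3.3 (rows with at least 10 summed counts, median-of-ratios size factors, two-sided Wald test, Cook's and independent filters at their defaults, Benjamini-Hochberg adjustment, threshold 0.05), after the study's methods but without the fold change limit that the study also set. The alternatives were edgeR 4.0.16 (quasi-likelihood), limma 3.58.1 (voom), other scalings and filters, a replicate block and each library left out. A repeat that gave no adjusted p for a row was counted as not calling it. The code was tested on simulated counts with 200 changed rows. Total counts per library ranged from 23674258 to 29611975, and limits use 3 counts. Coordinates and sequences are from GENCODE M21 (GRCm38), and 2 variable segment rows of the unfiltered table had no unique match. Segment names were given to the 8 Ighv, 8 Igkv and up to 4 Iglv members with the highest mean, the 2 most abundant of each library, and up to 8 calls in each direction with the smallest adjusted p. Other segments were named after their values were seen, as further leaders of a library or as further calls. The members and the gene lists were chosen with earlier results of these data known. A planned search for a promoter motif was not run, since the promoter table used here held no variable segments.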

Additional observations from a re-analysis of the deposited data

How the results depend on the processing

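The number of members called, 17 with DESeq2, was 8 when rows needed at least 10 counts in at least 3 libraries, which left fewer rows, 1 with edgeR, 0 with limma-voom and 6 to 20 when each library was left out in turn. Of these, 16 were lower in DKO, and 7 were under the stricter filter, 1 with edgeR, 0 with limma-voom and 4 to 19 with a library left out. The 1 member called higher became 0 with edgeR and with limma-voom, and 0 to 2 with a library left out. With a replicate block, which treats libraries of the same number as paired, 11 members were called, 9 lower and 2 higher. The labels give no reason for such pairs, and deviations of same-numbered libraries correlated at -0.011, -0.005 and -0.127 over 14824 genes, lower for each library than with some other number. The log2 ratio of summed levels, -1.05, was -1.27 with total counts and lay between -1.72 and -0.64 with a library left out. The difference in detected segments, DKO minus WT, was -39.3 and lay between -56.8 and -24.8 with a library left out, and was -25.1 at equal depth and -28 for segments with at least 10 counts. The difference in the top 10 share, 6.50 percentage points, lay between 3.30 and 11.6, and that in the top 1 share was -1.95.

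The 25 named segments with an adjusted p gave 383 alternative log2 fold changes, of which 319 kept direction and side of the threshold, 37 kept direction but were no longer past it, 5 passed it in addition and 22 reversed. The reversals were in 8 segments, and the cause was not tested. With limma-voom the values were -1.49 for Ighv6-3, -0.74 for Igkv2-137, -3.08 for Igkv4-57 and 1.42 for Igkv8-28, and with total counts -0.21 for Ighv6-3. With the replicate block they were 0.64 for Ighv1-22, -1.55 for Ighv6-3, -1.30 for Igkv2-137, -0.83 for Ighv1-78, -5.04 for Igkv4-57 and 1.08 for Igkv8-28. With each library left out, values ranged from -2.80 to 1.89 for Ighv1-22 (positive without WT 5), -1.39 to 0.92 for Ighv6-3 (negative without WT 4, WT 5 or DKO 4), -2.40 to 0.29 for Ighv1-53 (positive without WT 1), -1.25 to 1.29 for Igkv12-44 and -3.07 to 2.43 for Igkv2-137 (both negative without DKO 1), -6.66 to 0.89 for Igkv4-57 (negative without WT 5 or DKO 4) and -1.01 to 3.14 for Igkv8-28 (positive without WT 5 or DKO 4). For Igkv4-57 without DKO 4 the adjusted p was 0.00359 in DESeq2. Depth limits the segments of DKO 5, where 678 counts were spread over 55 of them.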

Other observations

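Joining segments gave few counts. The 4 Ighj rows summed to 110, 35 and 56 counts in WT 1, 4 and 5 and 76, 32 and 18 in DKO 1, 4 and 5, and the 5 Igkj rows to 59, 19 and 37 in WT and 23, 15 and 2 in DKO. Of the 20 Ighd rows, which hold the short diversity segments, 1 had any count, at 2.

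Genes that rearrange segments or pair with them in developing B cells were at or near 0. Rag1, Rag2, Dntt, Igll1 and Vpreb2 had 0 counts in every library, and Vpreb1 had at most 3. Of the 6 germinal centre markers 3 were tested. These, Bcl6, Fas and S1pr2, are also expressed outside B cells, and 0 were called by DESeq2 or edgeR. Pigr, the receptor that carries IgA into saliva, had 11251, 10193 and 14469 counts in WT and 11814, 10453 and 3468 in DKO, with an adjusted p of 0.841 in DESeq2. It was one of 6 tested genes of antibody secretion and plasma cell homing, of which 0 were called by DESeq2 or edgeR. Among 7 transcription factor genes linked to immunoglobulin promoters, DESeq2 called 1 lower and 0 higher, and edgeR called 0. Over all rows tested, DESeq2 called 1.88% lower and 1.02% higher. The gene called was Ikzf1, a lymphocyte factor, with 196, 71 and 136 counts in WT and 61, 63 and 36 in DKO. Its adjusted p was 0.0269 in DESeq2. Ikzf1 was called in 1 of 6 repeats with a library omitted, and its adjusted p was 0.495 without WT 1.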
